A study of Homo sapiens with 2 samples.

Results

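The 44 genes described here are 30 genes of glucose uptake, glycolysis and pyruvate use and 14 genes of the hypoxia response, out of 13137 genes in the deposited tag table. They were found by their symbols in the table, and all 44 had a row. The cells were A549, a human lung adenocarcinoma line, infected as a polyclonal population with a lentivirus that expressed an shRNA from the doxycycline-inducible H1TetO promoter. In shRNA-SOX2 the hairpin was directed against SOX2, a transcription factor of stem cells, and in shRNA-Con it had a scrambled sequence. Both lines received doxycycline for 4 days, so the agent was present in the control as well, and 4 µg of total RNA from each was profiled by digital gene expression, in which each mRNA molecule that is captured gives 1 short tag to be counted. There was 1 library per condition. The value columns carried abbreviations, and the column with the initials of shRNA-Con was read as that library and the remaining column as shRNA-SOX2.

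The targeted gene was examined first as a check of the labels. SOX2 had 16 tags in shRNA-Con against 23 in the shRNA-SOX2-labelled library, a ratio of tag shares whose 95% interval of 0.800 to 3.20 holds 1 (adjusted p = 0.333, Fisher's exact test). The tags of the target therefore show no decrease in that library, and every direction below is that of the library as labelled. Gene tags numbered 2093816 in this library and 2304184 in shRNA-Con. The tags of each gene, set against all remaining gene tags, were tested for a difference between the libraries (Fisher's exact test, two-sided), and p-values were adjusted over all 13137 genes by the method of Benjamini and Hochberg, with a false discovery rate (FDR) of 0.001 as the threshold. The test compares these libraries and not the conditions, since no spread between cultures was measured, and all intervals are 95% intervals of counting error alone. Fold values are ratios of a gene's share of the gene tags, so they compare a gene with itself between libraries, and levels of different genes are not compared. Where a pair of counts is given, that of shRNA-Con comes first. Of the epithelial markers, KRT8 had 7702 and 12729 tags, KRT18 had 10318 and 7887, and KRT19 had 35 and 127 in shRNA-Con and in the shRNA-SOX2-labelled library. KRT8 and KRT19 were higher and KRT18 was lower past the FDR, and the part of these differences in the results below was not tested. CDH1 had 50 tags in each library, and EPCAM, a surface marker of most epithelia, had 8 and 4. The 5 markers of leukocytes, endothelium and fibroblasts with a row had between 0 and 44 tags, and none passed the FDR. COL1A1 had 44 and 43 tags, CD14 11 and 10, PTPRC 2 in each library, PECAM1 3 and 0 and PDGFRB 0 and 2. As counts, the tags of COL1A1 were near those of CDH1 and above those of EPCAM, and these counts are not read as levels.

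Glycolysis splits glucose into pyruvate in the cytosol. Glucose enters through SLC2A transporters and is trapped by hexokinase, the phosphofructokinase step commits it to the pathway, and the lower enzymes from aldolase to pyruvate kinase yield ATP and NADH. In tumour cells much of the pyruvate is reduced to lactate and exported, even in air. When oxygen is short, hydroxylation of the alpha subunits of the hypoxia-inducible factor (HIF) by the EGLN prolyl hydroxylases stops, the subunits escape degradation through VHL, and HIF binds a short core, ACGTG or GCGTG, at its target genes, which include most glycolytic enzymes, glucose transporters and VEGFA.

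The promoters of 4 members are shown because they belong to the genes with the largest changes, 2 lower and 2 higher, among the called members with a single promoter in the RefSeq table of GRCh38.p14. Each line gives the 250 bases before the start of the gene, 5′ to 3′ on the strand of the gene, and capitals mark the hypoxia core ACGTG or GCGTG or the SOX core AACAAT or ACAAAG on either strand. HKDC1 and EGLN1 were lower and EGLN3 and PGK1 were higher in the shRNA-SOX2-labelled library.
HKDC1, chr10:69220082-69220331, plus strand: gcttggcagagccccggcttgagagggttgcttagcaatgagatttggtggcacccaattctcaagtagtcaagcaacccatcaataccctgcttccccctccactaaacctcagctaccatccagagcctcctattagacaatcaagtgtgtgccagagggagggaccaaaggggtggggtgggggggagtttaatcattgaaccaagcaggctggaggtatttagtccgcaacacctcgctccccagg
EGLN1, chr1:231422288-231422537, minus strand: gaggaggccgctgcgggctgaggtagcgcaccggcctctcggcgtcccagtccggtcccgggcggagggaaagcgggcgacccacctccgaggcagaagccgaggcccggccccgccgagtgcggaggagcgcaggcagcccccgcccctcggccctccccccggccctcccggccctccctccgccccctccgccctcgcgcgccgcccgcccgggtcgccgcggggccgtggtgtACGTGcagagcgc
EGLN3, chr14:33951075-33951324, minus strand: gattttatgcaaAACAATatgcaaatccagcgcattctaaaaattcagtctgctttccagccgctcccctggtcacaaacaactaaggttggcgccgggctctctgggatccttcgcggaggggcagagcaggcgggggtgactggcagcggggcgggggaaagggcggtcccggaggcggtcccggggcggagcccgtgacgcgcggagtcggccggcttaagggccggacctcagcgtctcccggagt
PGK1, chrX:78103998-78104247, plus strand: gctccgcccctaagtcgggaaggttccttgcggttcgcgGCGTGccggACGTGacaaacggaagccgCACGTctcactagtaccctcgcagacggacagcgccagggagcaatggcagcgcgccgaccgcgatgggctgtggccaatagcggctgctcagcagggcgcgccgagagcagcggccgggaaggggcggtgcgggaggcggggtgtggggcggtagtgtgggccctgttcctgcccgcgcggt
PGK1 carried 3 hypoxia cores, which began 211, 202 and 183 bases before the start. EGLN1 carried 1 such core 13 bases before the start. EGLN3 carried the SOX core AACAAT 238 bases before the start and no hypoxia core in this window, and HKDC1 had neither in the printed bases. The 50 bases after the start, which are not printed but are counted below, held a GCGTG in HKDC1 and a further ACGTG in PGK1. The GC content ranged from 54.4% in HKDC1 to 81.2% in EGLN1.

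These letters were common in promoters of the expressed genes as a whole. In windows from 250 bases before to 50 after the start, a hypoxia core on either strand was found in 48.4% of 35116 RefSeq promoters and in 61.7% of the 12206 promoters of genes with at least 20 tags. The table matched 38 of the 44 members, and SLC2A3, SLC16A1, PFKFB2, VEGFA, BNIP3L and NDRG1 were not matched. The core was present in 36 of 55 promoters of the glycolysis genes (65.5%) and in 9 of 13 of the hypoxia-response genes (69.2%). Counted per gene, with any of its promoters, it was in 26 of 27 glycolysis genes (96.3%) and 9 of 11 hypoxia-response genes (81.8%), beside 71.7% of the 8293 genes with at least 20 tags, and genes with several promoters have more windows in which to hold it. By direction, 9 of 13 promoters of lower members (69.2%) and 13 of 18 of higher members (72.2%) held it. The E-box CACGTG, which contains ACGTG, was in 14.5% of the glycolysis promoters, 23.1% of the hypoxia promoters and 9.73% of those of genes with at least 20 tags. A SOX core was in 2 of 13 promoters of lower members (15.4%) and in 5 of 18 of higher members (27.8%), beside 16.0% of the promoters of genes with at least 20 tags.

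The glycolysis genes were called in both directions. The glucose transporters SLC2A1 and SLC2A3, the hexokinase HKDC1, the phosphofructokinase subunit PFKP with its regulator PFKFB3, the mutase PGAM1 and the lactate transporter SLC16A1 were lower in the shRNA-SOX2-labelled library. The isomerases GPI and TPI1, GAPDH, PGK1, ENO1, PKM2, both lactate dehydrogenases and the transporter SLC16A3 were higher. Of the 30 genes, 7 were thus lower past the FDR (23.3%), 9 were higher (30.0%) and 14 did not pass. Over all 13137 genes 12.2% were lower and 9.53% were higher. Calls depend on the number of tags, and among the 6237 genes whose tags in both libraries added up to 100 or more 22.5% were lower and 16.6% were higher, while the 21 glycolysis genes of that depth held all 7 lower and all 9 higher calls. The 26 glycolysis genes with at least 20 tags had a median log2 fold change of 0.11, from -4.05 to 1.16, and all 10045 genes with at least 20 tags had a median of -0.10. With clean tags, the tags of the whole library, in place of gene tags, every log2 fold change shifts by -0.11 and the median of all genes is -0.22.

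Among the hypoxia-response genes HIF1A, EGLN1, VEGFA, CA12 and BNIP3L were lower and EGLN2 and EGLN3 were higher. Of these 14 genes, 5 were lower (35.7%), 2 were higher (14.3%) and 7 did not pass, and the 10 with at least 100 tags held 5 lower calls and 1 higher call. The median log2 fold change of the 13 genes with at least 20 tags was -0.63, from -2.07 to 2.14. With a change of at least 2-fold also required, 2 glycolysis genes (SLC2A3 and HKDC1) and 4 hypoxia genes (HIF1A, EGLN1, VEGFA and BNIP3L) were lower and SLC16A3 and EGLN3 were higher, against 6.77% of all genes lower and 5.18% higher. When a spread between cultures was assumed in edgeR's exact test, 10 of the 44 genes passed with a coefficient of variation of 0.1 (HKDC1, SLC2A3, PFKP, PGK1, SLC16A3, HIF1A, EGLN1, EGLN3, VEGFA and BNIP3L) and only HKDC1 passed with 0.2. Over all genes 8.88% passed with 0.1 and 0.860% with 0.2.

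**Figure D1:**
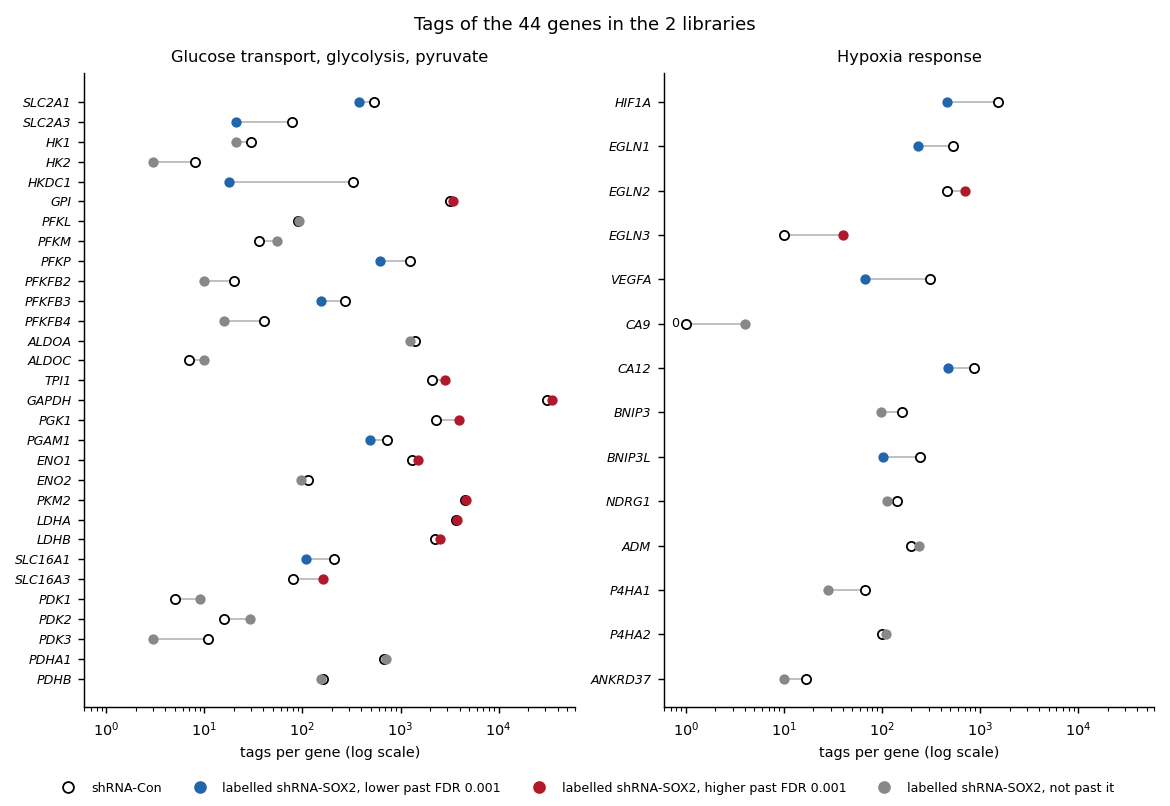
Tags of each of the 44 genes on a log axis, with open circles for shRNA-Con and filled circles for the shRNA-SOX2-labelled library (blue lower and red higher past FDR 0.001, grey not past it). HKDC1 has the widest gap, from 328 to 18 tags, and the genes with the most tags lie mostly to the right of their open circles. The 0 tags of CA9 in shRNA-Con are drawn at 1 and marked 0.

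The transcripts for glucose uptake were lower. SLC2A1, the main glucose transporter of many tumour cells, had 540 tags in shRNA-Con against 378 in the shRNA-SOX2-labelled library, which is 1.30-fold lower (interval 1.14 to 1.48, adjusted p = 0.000471, Fisher's exact test). This call was lost with TMM factors (adjusted p = 0.00623, Fisher's exact test). SLC2A3, a transporter of higher affinity for glucose, had 79 and 21 tags, 3.42-fold lower (interval 2.09 to 5.83, adjusted p = 4.69e-07, Fisher's exact test). The ratio of SLC2A1 to SLC2A3 tags, which does not depend on how the libraries are scaled, was 6.84 in shRNA-Con and 18.0 in the shRNA-SOX2-labelled library, and the ratio of these ratios was 2.63 (interval 1.58 to 4.57). SLC2A3 was thus lower by more than SLC2A1. The table gives bulk mRNA, in which fewer cells with a transcript and less transcript per cell cannot be told apart.

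HKDC1, a hexokinase-domain protein found in epithelia, showed the largest difference of any member. It had 328 tags in shRNA-Con against 18 in the shRNA-SOX2-labelled library, a 16.6-fold lower share (interval 10.3 to 28.3, adjusted p = 8.34e-67, Fisher's exact test), and was the third from the bottom among 10045 genes with at least 20 tags. HK1, the widely expressed hexokinase, had 30 and 21 tags, and HK2, the hexokinase associated with tumours, had 8 and 3, and neither passed the FDR. An antisense transcript, AL596223.2, overlaps HKDC1 in GENCODE. The HKDC1 to HK1 ratio was 10.9 in shRNA-Con and 0.857 in the shRNA-SOX2-labelled library, a change of 12.8-fold (interval 5.72 to 28.2). The 3 hexokinase genes together had 366 and 42 tags, so their summed share was 0.126 of that in shRNA-Con (interval 0.0895 to 0.174).

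The phosphofructokinase step was lower through PFKP. PFKP, the platelet-type subunit, had 1250 tags in shRNA-Con against 618 in the shRNA-SOX2-labelled library, 1.84-fold lower (interval 1.67 to 2.03, adjusted p = 2.37e-35, Fisher's exact test). The liver-type PFKL had 91 and 92 tags and the muscle-type PFKM 36 and 55, and neither passed. Relative to PFKL, PFKP was 2.04-fold lower (interval 1.49 to 2.81), and the interval of the PFKM to PFKL comparison, 0.880 to 2.61, holds 1. The PFKFB enzymes set the level of a fructose bisphosphate that activates phosphofructokinase and differs from the fructose bisphosphate that phosphofructokinase itself makes. PFKFB3 had 272 and 153 tags, 1.62-fold lower (interval 1.32 to 1.98, adjusted p = 1.20e-05, Fisher's exact test). PFKFB4 had 41 and 16 and PFKFB2 had 20 and 10, and neither passed (adjusted p = 0.0111 and 0.257, Fisher's exact test), and the intervals of the PFKFB4 to PFKFB3 and PFKFB3 to PFKFB2 ratios hold 1. Summed over the step, the share of the phosphofructokinase subunits was 0.611 of that in shRNA-Con (interval 0.559 to 0.668) and that of the PFKFB genes 0.592 (interval 0.490 to 0.711).

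The enzymes that convert sugar phosphates to pyruvate were mostly higher. GPI, which makes fructose phosphate from glucose phosphate, had 3194 tags in shRNA-Con against 3465 in the shRNA-SOX2-labelled library, 1.19-fold higher (interval 1.14 to 1.25, adjusted p = 7.40e-12, Fisher's exact test). The aldolases, which cleave the sugar, did not pass, with 1409 and 1253 tags for ALDOA and 7 and 10 for ALDOC, and the log2 fold change of ALDOA was -0.03 and turned to 0.04 with TMM or median-ratio factors. TPI1, which interconverts the triose phosphates, had 2116 and 2849 tags, 1.48-fold higher (interval 1.40 to 1.57, adjusted p = 1.82e-41, Fisher's exact test).

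GAPDH, the dehydrogenase of the pathway and often taken as a loading control, had 31432 tags in shRNA-Con against 35134 in the shRNA-SOX2-labelled library, 1.23-fold higher (interval 1.21 to 1.25, adjusted p = 5.79e-157, Fisher's exact test). PGK1, which makes the first ATP of the pathway, had 2297 and 3948 tags and was 1.89-fold higher, the most of the called enzymes from GPI to LDHB (interval 1.80 to 1.99, adjusted p = 2.77e-133, Fisher's exact test). The printed part of its promoter holds 3 hypoxia cores. PGAM1, the mutase that follows PGK1, stood apart from its neighbours with 728 and 491 tags, 1.35-fold lower (interval 1.20 to 1.51, adjusted p = 2.15e-06, Fisher's exact test). PGK1 and PGAM1 thus moved in opposite directions past the FDR. ENO1, the main enolase, had 1314 and 1509 tags, 1.26-fold higher (interval 1.17 to 1.36, adjusted p = 5.99e-09, Fisher's exact test), and ENO2, the neuronal enolase, had 113 and 97 and did not pass. The ENO2 to ENO1 ratio changed 0.747-fold, with an interval from 0.558 to just under 1. PKM2, the row of the pyruvate kinase gene PKM, had 4496 and 4659 tags, 1.14-fold higher (interval 1.09 to 1.19), and this call was lost with clean tags (adjusted p = 0.0326, Fisher's exact test). The intervals of these abundant genes are narrow because of their counts, and GAPDH, PGAM1, TPI1, ENO1 and PKM2 have 62, 13, 4, 4 and 5 pseudogenes in GENCODE whose tags could be shared with them. LDHA and LDHB have 6 and 3. How multiply matching tags were treated is not given in the sources used here.

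**Figure D2:**
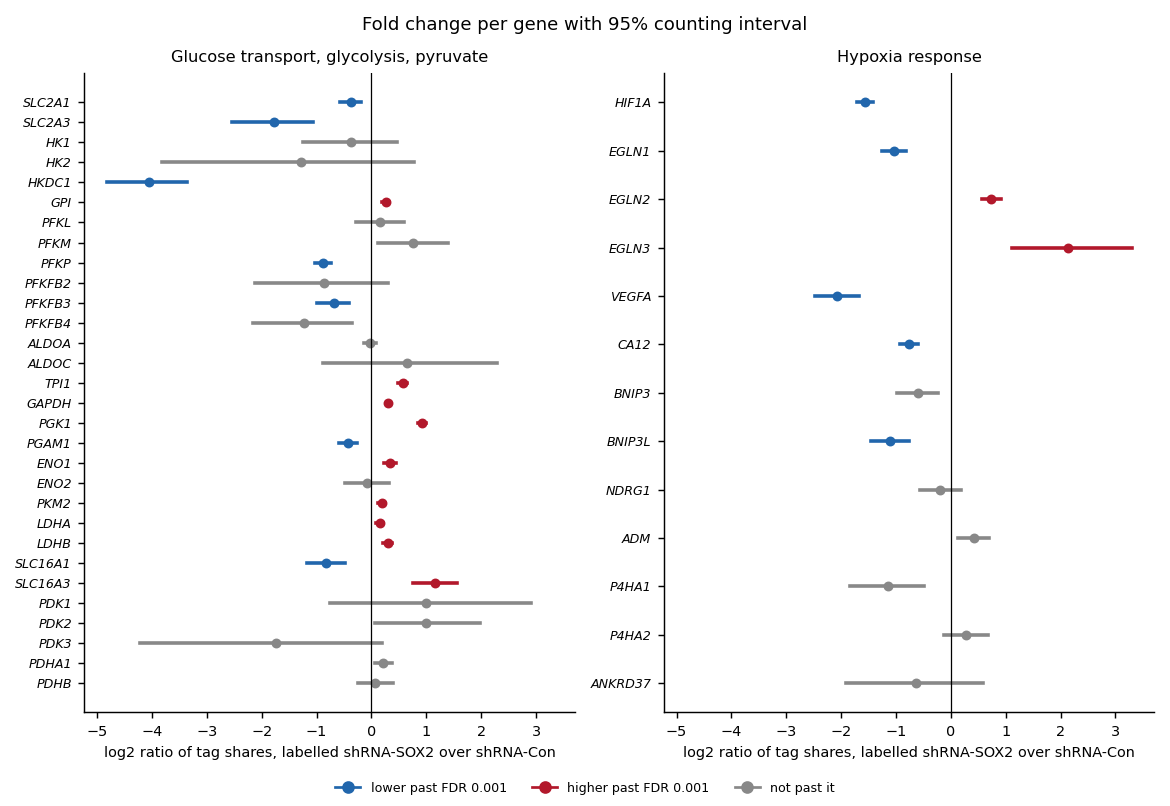
Log2 ratio of tag shares for each gene, the shRNA-SOX2-labelled library over shRNA-Con, with bars for the 95% interval of counting error and colours as in the plot of tags. In the left panel the genes from SLC2A1 to PFKFB4 lie mostly left of 0 and those from TPI1 to LDHB mostly right of it, with PGAM1 at -0.43 as the one blue point among them. CA9 is left out because it had 0 tags in shRNA-Con.

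The lactate dehydrogenase transcripts were slightly higher, and the lactate transporters differed in opposite directions. LDHA, which reduces pyruvate to lactate, had 3711 tags in shRNA-Con against 3742 in the shRNA-SOX2-labelled library, 1.11-fold higher (interval 1.06 to 1.16, adjusted p = 4.36e-05, Fisher's exact test), a call lost with clean tags, where its log2 fold change was 0.04. LDHB, the isozyme that favours pyruvate, had 2249 and 2509 tags, 1.23-fold higher (interval 1.16 to 1.30, adjusted p = 2.25e-11, Fisher's exact test). The LDHA to LDHB ratio was 1.65 and 1.49, so LDHA lost ground to LDHB by 1.11-fold (interval 1.03 to 1.19). SLC16A1, a monocarboxylate transporter of most tissues, had 211 and 108 tags, 1.78-fold lower (interval 1.40 to 2.26, adjusted p = 5.21e-06, Fisher's exact test). SLC16A3, the lactate exporter of glycolytic cells, had 81 and 164 tags, 2.23-fold higher (interval 1.70 to 2.94, adjusted p = 1.30e-08, Fisher's exact test). SLC16A3 overlaps CSNK1D on the opposite strand in GENCODE. There were 0.384 SLC16A3 tags per SLC16A1 tag in shRNA-Con and 1.52 in the shRNA-SOX2-labelled library, a 3.96-fold change (interval 2.74 to 5.72), while their sum was 292 and 272 tags and its ratio of 1.03 (interval 0.866 to 1.21) held 1.

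Pyruvate dehydrogenase turns pyruvate into acetyl-CoA inside mitochondria, and the PDK kinases switch it off. PDHA1 and PDHB, subunits of the enzyme, had 675 and 711 tags and 163 and 156 tags, and neither passed the FDR. PDK1, PDK2 and PDK3 were sparse, with 5 and 9, 16 and 29, and 11 and 3 tags, and none passed. Of the pairs PDK1 to PDK2, PDK3 to PDK2 and PDHA1 to PDHB, only PDK3 to PDK2 had an interval without 1, at 6.65-fold lower (interval 1.42 to 41.1). With so few tags, differences of PDK1, PDK2, PDK3, HK2 and ALDOC were not detectable at this depth unless large.

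Summed over the 30 genes, glycolysis took 2.47% of the gene tags in shRNA-Con and 2.97% in the shRNA-SOX2-labelled library, a ratio of 1.20 (interval 1.19 to 1.22). GAPDH held most of these tags, and without it the ratio was 1.17 (interval 1.15 to 1.19). The sum is carried by the genes with many tags and stands beside the smaller shares of the transport, hexokinase and phosphofructokinase steps. The 14 hypoxia genes took 0.201% and 0.128%, a ratio of 0.637 (interval 0.607 to 0.668), and 0.783 (interval 0.741 to 0.827) without HIF1A.

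**Figure D3:**
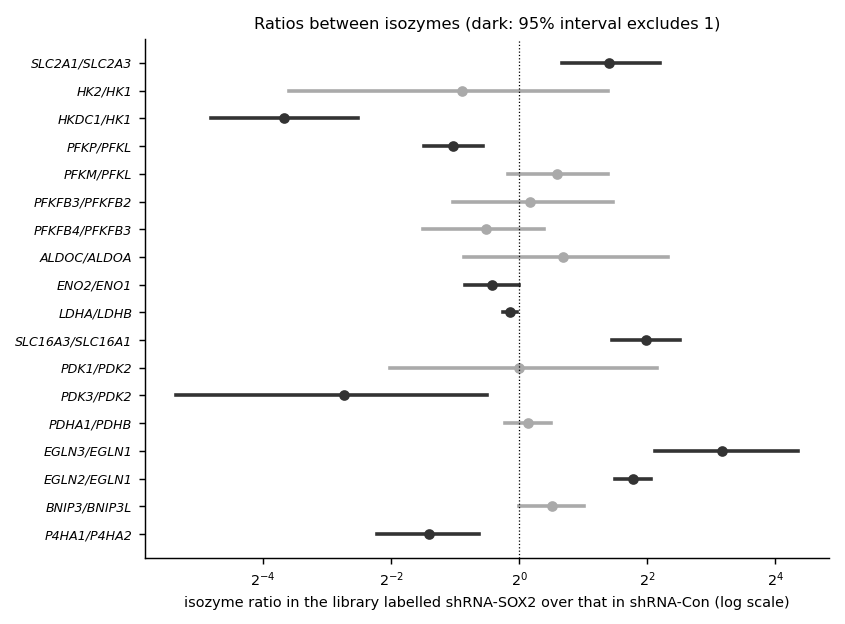
Ratio of one isozyme to its partner in the shRNA-SOX2-labelled library divided by the same ratio in shRNA-Con, on a log axis, with bars for the 95% interval of counting error and dark marks where it excludes 1. HKDC1/HK1 at 0.0784 and EGLN3/EGLN1 at 9.02 lie furthest from 1, and CA9/CA12 is left out because CA9 had 0 tags in shRNA-Con.

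Among 19 pairs of isozymes or related genes, the interval excluded 1 in 11 and held 1 in 8. These intervals were not adjusted for the number of pairs, and the share among other gene pairs was not computed. Unadjusted differences were common in these libraries, where 5800 of 13137 single genes had a p under 0.05 (Fisher's exact test). The pairs with an interval that excluded 1 lay at glucose transport, hexokinase, phosphofructokinase, enolase, lactate dehydrogenase, lactate export and pyruvate dehydrogenase kinase. Among the hypoxia genes they lay at the EGLN, carbonic anhydrase and P4HA genes. The carbonic anhydrase pair rests on 0 and 4 tags of CA9, too few to read as a difference. The pyruvate dehydrogenase kinase pair rests on 11 and 3 tags of PDK3, and the interval of the enolase pair ends just under 1.

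In the hypoxia response, the mRNA of the oxygen-regulated subunit was lower, and its protein was not measured here. HIF1A had 1511 tags in shRNA-Con against 464 in the shRNA-SOX2-labelled library, 2.96-fold lower (interval 2.67 to 3.29, adjusted p = 5.28e-106, Fisher's exact test). The 3 prolyl hydroxylases, the oxygen sensors that mark HIF alpha for destruction, did not move together. EGLN1, the main hydroxylase in most cells, had 530 and 235 tags, 2.05-fold lower (interval 1.75 to 2.40, adjusted p = 7.64e-20, Fisher's exact test). EGLN2 had 459 and 696 tags, 1.67-fold higher (interval 1.48 to 1.88, adjusted p = 1.48e-16, Fisher's exact test). EGLN3, whose mRNA is induced by HIF in many cells, had 10 and 40 tags, 4.40-fold higher (interval 2.16 to 9.87, adjusted p = 2.09e-05, Fisher's exact test). The family thus held 1 lower and 2 higher genes. Per EGLN1 tag, EGLN2 changed from 0.866 to 2.96, by 3.42-fold (interval 2.81 to 4.17), and EGLN3 from 0.0189 to 0.170, by 9.02-fold (interval 4.33 to 20.5). Their sum was 999 and 971 tags, with a ratio of 1.07 (interval 0.978 to 1.17). EGLN2 shares exon sequence with the read-through gene RAB4B-EGLN2 in GENCODE, and HIF1A overlaps the antisense HIF1A-AS1, and the strand setting of the counting is not given in the sources used here.

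Of the targets of HIF in the hypoxia list, the EGLN genes apart, VEGFA, CA12 and BNIP3L were lower. VEGFA, the angiogenic growth factor, had 309 tags in shRNA-Con against 67 in the shRNA-SOX2-labelled library, 4.19-fold lower (interval 3.21 to 5.54, adjusted p = 6.87e-32, Fisher's exact test), the largest decrease of the hypoxia genes. CA12, a membrane carbonic anhydrase that buffers acid, had 870 and 468 tags, 1.69-fold lower (interval 1.51 to 1.89, adjusted p = 2.81e-19, Fisher's exact test). CA9, the related enzyme that is a classical marker of hypoxia, had 0 and 4 tags and did not pass. A count of 0 allows up to 3 tags, so that no difference of CA9 was detectable at this depth. BNIP3L, a receptor for the removal of mitochondria, had 244 and 103 tags, 2.15-fold lower (interval 1.70 to 2.74, adjusted p = 1.50e-10, Fisher's exact test). Its relative BNIP3 had 162 and 97 tags and did not pass (adjusted p = 0.00451, Fisher's exact test), but it did with clean tags (adjusted p = 0.000511, Fisher's exact test). BNIP3 has 39 pseudogenes in GENCODE, and the interval of the BNIP3 to BNIP3L ratio, 0.993 to 2.02, holds 1.

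The remaining targets of the hypoxia list, the EGLN genes apart, did not pass the FDR. P4HA1, a collagen prolyl hydroxylase subunit, had 68 tags in shRNA-Con against 28 in the shRNA-SOX2-labelled library, close to the threshold (adjusted p = 0.00135, Fisher's exact test) and past it with clean tags (adjusted p = 0.000287, Fisher's exact test). P4HA2, the other inducible subunit, had 101 and 111 tags, so that P4HA1 was 2.67-fold lower relative to P4HA2 (interval 1.55 to 4.65). ADM, the vasodilator peptide adrenomedullin, had 198 and 240 tags, NDRG1, a stress-response gene, 142 and 113, and ANKRD37, an ankyrin-repeat gene induced by HIF, 17 and 10. The 10 targets from VEGFA to ANKRD37 thus held 3 lower genes, 0 higher genes and 7 that did not pass. Over all genes 12.2% were lower and 9.53% were higher. The EGLN genes and the glycolysis genes, which also include HIF targets, stand outside this count. Of these, EGLN1 was lower, EGLN2 and EGLN3 were higher and the glycolysis genes were called in both directions.

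**Figure D4:**
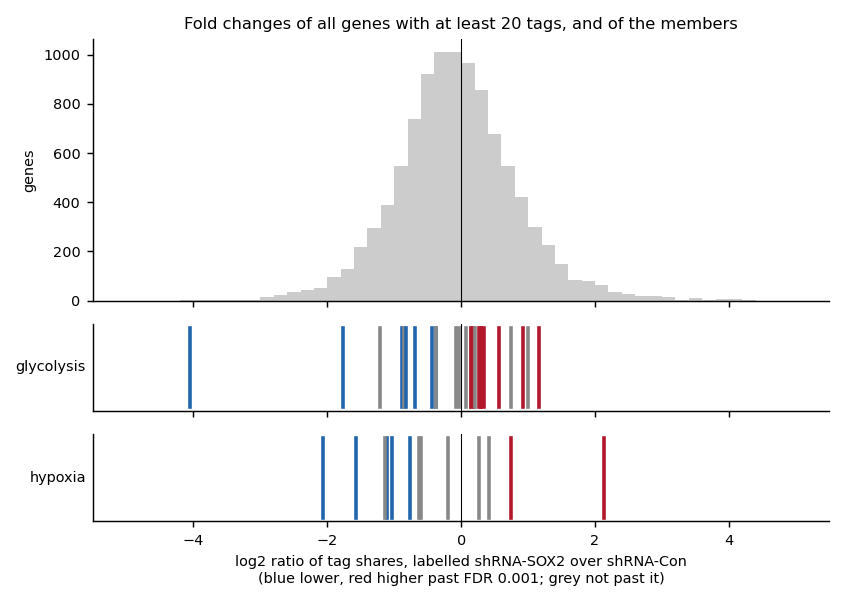
Histogram of the log2 ratio of tag shares, the shRNA-SOX2-labelled library over shRNA-Con, for the 10045 genes with at least 20 tags, above lines for the 26 glycolysis and 13 hypoxia genes of that depth (blue lower, red higher, grey not past FDR 0.001). The lines of both lists spread over the bulk of the histogram, and HKDC1 at -4.05 lies at its lower end.

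Other genes of the same pathways were examined from lists set by pathway membership but written with earlier results of these data known. Their counts are read beside the 12.2% of all genes that were lower and the 9.53% that were higher. Of 10 HIF subunits and regulators, 2 were lower and 0 higher. EPAS1, the other widely studied alpha subunit, had 744 tags in shRNA-Con against 234 in the shRNA-SOX2-labelled library, 2.89-fold lower (interval 2.49 to 3.36, adjusted p = 1.80e-50, Fisher's exact test), beside 2.96-fold for HIF1A. ARNT, the constant partner subunit, had 102 and 72 tags and did not pass (adjusted p = 0.209, Fisher's exact test), whereas its relative ARNT2 had 72 and 21 and was 3.12-fold lower (interval 1.89 to 5.33). VHL, which recognises hydroxylated HIF alpha, had 52 and 22 tags (adjusted p = 0.00812, Fisher's exact test), and HIF1AN, the asparaginyl hydroxylase, 113 and 80 (adjusted p = 0.192, Fisher's exact test). HIF1A, EPAS1 and ARNT2 were thus lower past the FDR. Neither ARNT nor VHL passed it, but VHL was 2.15-fold lower (interval 1.28 to 3.71) on 74 tags in both libraries together.

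Of 28 further hypoxia-induced genes with a row, 5 were lower and 5 were higher, with a median log2 fold change of -0.09 over the 25 with at least 20 tags. VLDLR, a lipoprotein receptor, had 40 tags in shRNA-Con against 7 in the shRNA-SOX2-labelled library, STC2, a secreted glycoprotein, 186 and 39, the transcription factor KLF10 352 and 132, and the transcriptional repressor BHLHE40 502 and 226. On the higher side, the histone demethylase KDM4B had 9 and 36 tags, the lysyl hydroxylase PLOD1 71 and 174, and the ubiquitin ligase subunit WSB1 145 and 278. All 7 differed by at least 2-fold past the FDR. The others past it, named, like BHLHE40, after their values were seen, were the cytokine MIF, which was lower with 1345 and 891 tags, and the heme oxygenase HMOX1 (3437 and 5039) and the lysyl hydroxylase PLOD2 (973 and 1333), which were higher.

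Of 20 further genes of glycolysis and pyruvate use with a row, 1 was lower and 3 were higher, and 10 genes of that list were not analysed here. PCK2, the mitochondrial enzyme that makes phosphoenolpyruvate, had 135 and 20 tags, 6.13-fold lower (interval 3.82 to 10.4, adjusted p = 1.90e-18, Fisher's exact test). C12orf5, also called TIGAR, a phosphatase that opposes PFKFB action, had 154 and 362 tags at 1.37 on the log2 scale (adjusted p = 1.89e-23, Fisher's exact test), and PDK4, a pyruvate dehydrogenase kinase induced by fasting, 48 and 138 with 1.66 (adjusted p = 2.88e-12, Fisher's exact test). The third higher gene, ENO3, the muscle enolase, had 67 and 114 tags and was named after its values were seen. In the members, PDK1, PDK2 and PDK3 did not pass, on 14, 45 and 14 tags in both libraries together against 186 for PDK4. PDK1 was 1.98-fold higher (interval 0.596 to 7.52) and PDK2 1.99-fold higher (interval 1.05 to 3.93), while PDK3 was 3.33-fold lower (interval 0.880 to 18.6). The missing calls of PDK1 and PDK2 therefore do not set them apart from PDK4, whose interval was 2.26 to 4.49.

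Glucose also feeds the pentose phosphate pathway and glycogen. Among 7 pentose phosphate enzymes 2 were lower and 0 higher, and PGLS, the lactonase, had 241 tags in shRNA-Con against 83 in the shRNA-SOX2-labelled library at -1.40 on the log2 scale (adjusted p = 1.15e-14, Fisher's exact test). Among 9 glycogen genes 1 was lower and 4 higher. PYGB, the brain-type phosphorylase that breaks glycogen down, had 432 and 107 tags, 3.67-fold lower (interval 2.96 to 4.58, adjusted p = 3.47e-39, Fisher's exact test). The synthase GYS1 had 27 and 83 tags (adjusted p = 4.10e-08, Fisher's exact test), and PPP1R3C, a glycogen-targeting subunit of a phosphatase, 15 and 45 (adjusted p = 0.000129, Fisher's exact test). Both named after their values were seen, the branching enzyme GBE1 (122 and 196 tags) was also higher, and PGD, the dehydrogenase of the pentose phosphate pathway, was lower with 3374 and 2483 tags.

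**Figure D5:**
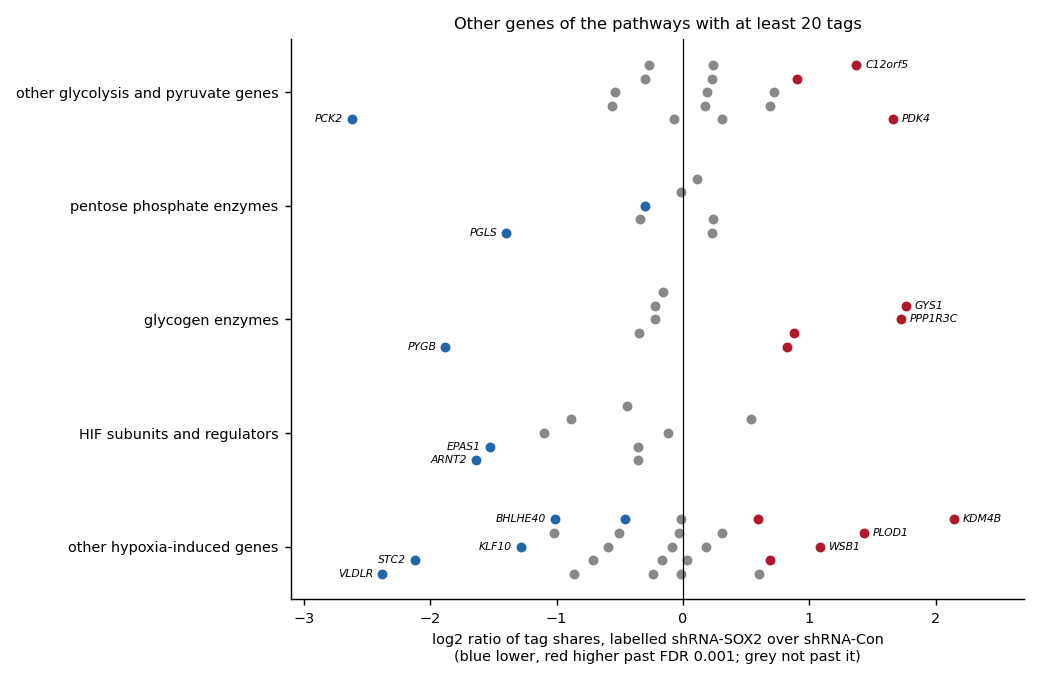
Log2 ratio of tag shares, the shRNA-SOX2-labelled library over shRNA-Con, of genes with at least 20 tags in 5 further lists (blue lower, red higher, grey not past FDR 0.001), with names where the change was also at least 2-fold. EPAS1 and ARNT2 lie to the left among HIF subunits, and the other hypoxia-induced genes spread from VLDLR at -2.38 to KDM4B at 2.14.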

How the data were processed

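Tags of 1 library per condition were analysed. The authors deposited raw tag counts per Entrez Gene ID, and TPM, which are those counts scaled to the clean tags of the whole library. The clean tags derived from TPM were 3456234 in the shRNA-SOX2-labelled library and 3516266 in shRNA-Con, of which 60.6% and 65.5% were on genes. The submitters' processing notes name hg19, and the aligner is not given in the sources used here. The deposited log2 ratio, p-value and FDR columns were not used. A count below 3 was set to 3 in fold changes. Intervals are exact (Clopper-Pearson, or conditional for isozyme ratios). Rows without a symbol held 0.0372% and 0.0535% of the gene tags. Every member was named, and of the other lists up to 6 genes each past FDR 0.001 and changed by 1 or more on the log2 scale, plus EPAS1, ARNT, VHL and HIF1AN. The members and lists were chosen with earlier results of these data known, and the sums over pathway steps and the printed promoters after the values were seen. The values of 1 gene of the other lists are not reported here. Promoters are RefSeq sequences. Alternatives were TMM (edgeR 4.0.16), median-ratio (DESeq2 1.42.0) and clean-tag scaling, at least 10 tags, assumed coefficients of variation of 0.1, 0.2 and 0.4 in edgeR's exact test, an FDR of 0.05, a 2-fold minimum and 0.5 added to each count. Python 3.11.15, scipy 1.17.1 and R 4.3.3 were used, and the steps were tested on simulated data.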

Additional observations from a re-analysis of the deposited data

How the results depend on the processing

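With 1 library per condition no spread between cultures is known, and no library could be left out. No paired analysis was possible because there was 1 library of each kind. Of the 23 members past FDR 0.001, 22 kept the call with TMM or median-ratio factors, 23 with at least 10 tags or with 0.5 added, and 21 with clean tags, where BNIP3 and P4HA1 were gained. At an FDR of 0.05, 29 of the 44 members passed. The share of all genes at that FDR was not computed, so this count is not read as a result about the members.

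The counts fell when a spread was assumed in edgeR's exact test. With coefficients of variation of 0.1, 0.2 and 0.4, the lower glycolysis genes numbered 3, 1 and 0 in place of 7, and the higher ones 2, 0 and 0 in place of 9. Lower hypoxia genes numbered 4, 0 and 0 in place of 5, and higher ones 1, 0 and 0 in place of 2. The other genes of the pathways had 11 lower calls, which became 9, 1 and 0, and 12 higher calls, which became 6, 0 and 0. At an unadjusted p under 0.05 the same exact test gave 11 members with 0.2 and 3 with 0.4, and 18 and 6 of the other genes, while Fisher's exact test gave 30 members and 41 other genes. Over all 13137 genes these counts were 2481, 627 and 5800. With a 2-fold minimum, 2 glycolysis genes were lower and 1 higher, 4 hypoxia genes were lower and 1 higher, and 9 other genes were lower and 7 higher. At an FDR of 0.05, 18 other genes were lower, again without the share of all genes beside it.

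The summed glycolysis ratio of 1.20 was 1.27 with TMM factors, 1.26 with median-ratio factors, 1.11 with clean tags and 1.17 without GAPDH. Signs turned for ALDOA, from -0.03 to 0.04 with TMM and median-ratio factors, and for PDHB, from 0.07 to -0.04 with clean tags.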
